A study of Mus musculus with 4 samples.

Results

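The nuclear genes of oxidative phosphorylation were examined in Sca-1 cells of failing and healthy mouse hearts. They were 42 genes that encode subunits of the respiratory complexes and of ATP synthase, out of 18193 genes named alone by at least 1 probe set of the array. The members were listed by name as subunits, and no threshold on measured values entered the rule: 24 belong to complex I, 4 to complex II, 6 to complex III, 7 to complex IV and 1 to complex V. All probe sets that carry the symbol of a member and no other symbol were collected, which gave 84 probe sets. Of these, 72 had intensities of at least 50 on 2 or more of the arrays and were tested, and 40 of the 42 genes were measured in this way.

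Oxidative phosphorylation takes place at the inner mitochondrial membrane. Complexes I and II pass electrons from NADH and from succinate to ubiquinone, complex III passes them on to cytochrome c, and complex IV reduces oxygen. The proton gradient that complexes I, III and IV build drives ATP synthase, also called complex V. Most subunits are encoded in the nucleus and only a few in mitochondrial DNA, and heart muscle cells are known for their large content of these complexes.

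The cells were taken from 6-week-old FVB mice of either sex by magnetic sorting for the surface protein Sca-1. Cyc mice were double-transgenic and overexpressed Cyclin T1 and Gαq, both under the αMHC promoter, which drives expression in cardiomyocytes, and they develop heart failure. Wt mice were the wildtype controls and carried neither transgene. Each genotype was measured in 2 pools of 2 to 3 mice, 1 array a pool and 250 ng of RNA an array, and the pools of the same number are taken here as coming from the same of 2 experiments.

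Over the tested probe sets the median intensity was 198 and 280 in the Cyc pools and 219 and 261 in the Wt pools. The 27 probe sets for the poly-A control RNAs had a median of 250 and 214 in the pools of experiment 1 and of -1.14 and 0.57 in those of experiment 2. A Gnaq probe set, which reads the gene of Gαq, read 724 and 492 in Cyc against 22.7 and 4.06 in Wt. The other 6 Gnaq probe sets had fitted log2 differences of -0.47 to -0.18. The 8 endothelial and 8 fibroblast markers were all measured, with summed intensities of 34887 to 41187 and of 24706 to 39694. Ly6a, the gene of Sca-1, was not analysed here.

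None of the 72 tested probe sets of the members passed the thresholds of the study, a change of at least 2-fold and an unadjusted p under 0.05, applied here to limma. Over all 20680 tested probe sets, 0.735% passed as higher and 0.116% as lower in Cyc. No member had an unadjusted p under 0.05 in limma, and the smallest was 0.103, at a second probe set of Ndufb5, a membrane arm subunit of complex I, and every adjusted p rounded to 1 in limma with Benjamini-Hochberg adjustment. The fitted log2 differences between Cyc and Wt ran from -0.06 for Ndufv1 to 0.35 for Ndufs8, with a median of 0.10 over the 40 genes and of -0.02 over all tested probe sets. For 39 of the 40 genes the 95% confidence interval of the difference lay within a 2-fold change in either direction. The exception was Ndufb2, whose interval reached a log2 difference of 1.03. The interval lay within 2-fold for 51.4% of all tested probe sets and for 65.4% of the 3863 other tested genes in the members' range of intensity. With 2 pools a group, intervals and p-values take in no more than the variation among these 4 pools. Unless a block is named, they and the SEs come from a fit that counts a shift between the experiments as error.

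The members were bright on the array. All 40 genes had a mean above that of the median tested probe set, and the means ran from 522 for Sdhc to 11117 for Uqcrb. Intensities of different probe sets also reflect how well each probe binds, so the order of genes and complexes by brightness is not an order of mRNA amounts. With that limit, the median intensity of the complex IV genes was 5829 and 4465 in the Cyc pools and 4804 and 4691 in the Wt pools. The complex III genes had medians of 2003 and 1767 in Cyc against 1730 and 1709 in Wt. The complex I genes had medians of 1780 and 1583 in Cyc against 1572 and 1599 in Wt. The complex II genes had medians of 1021 and 1156 in Cyc against 1065 and 1081 in Wt. In complexes I, III and IV the pool Cyc 1 had a higher median than the other 3 pools.

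**Figure D1:**
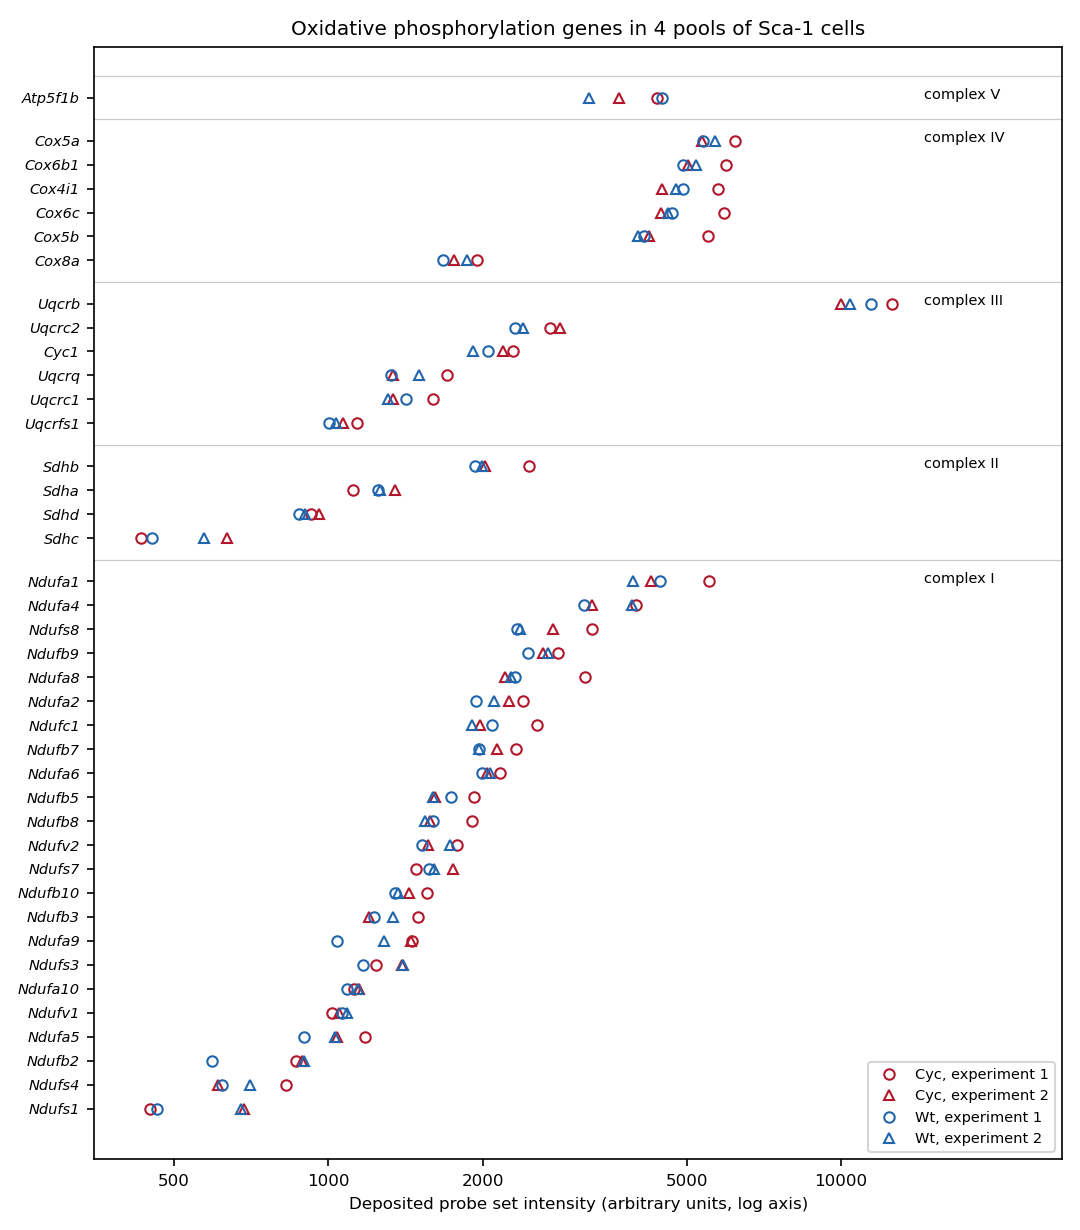
Normalized intensity (log axis) of each measured member in the 2 Cyc and 2 Wt pools, 1 point a pool, with genes grouped by respiratory complex. Genes differ far more from each other than the pools of either genotype differ, from Sdhc at a mean of 522 to Uqcrb at 11117, and Cyc 1 is often the highest point.

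Complex I oxidises NADH, and its core subunits carry the flavin and the iron-sulphur clusters, while the accessory subunits surround them. Ndufs8, a core iron-sulphur subunit, had the highest fitted difference of all members. Its brightest probe set read 3269 and 2739 in Cyc against 2332 and 2369 in Wt, a log2 difference of 0.35 ± 0.24 (SE, n = 2 a group). Each Cyc pool exceeded each Wt pool, and the 6 probe sets of the gene all gave positive differences, from 0.17 to 0.35. They read the same transcripts in part and are not independent, and 3 of the 6 were lower in Cyc in experiment 2, by at most 0.03.

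Ndufa9, an accessory subunit of the peripheral arm, read 1460 and 1449 in Cyc against 1040 and 1286 in Wt, a difference of 0.33 ± 0.24. Here too the groups did not overlap, and the Wt pools differed more from each other than the Cyc pools did. Ndufb2, an accessory subunit of the membrane arm, read 867 and 887 in Cyc against 593 and 898 in Wt. The groups overlapped (0.26 ± 0.29), and Wt 1 alone lay apart from the other 3 pools. Ndufa1, the brightest complex I member, read 5542 and 4258 in Cyc against 4445 and 3931 in Wt, with a difference of 0.22 ± 0.26.

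The second probe set of Ndufb5, the member probe set closest to the threshold, read 1762 and 1936 in Cyc against 1308 and 1376 in Wt. It was higher in Cyc by 0.43 in experiment 1 and by 0.49 in experiment 2, and its p was 0.0562 in limma with the experiment as a block. The brightest probe set of the same gene read 1929 and 1617 in Cyc against 1734 and 1599 in Wt, which gave a difference of 0.08. Thus the separation of the genotypes was seen with the dimmer of the 2 probe sets and not with the brighter.

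At the other end stood Ndufv1, the core subunit that binds NADH. It read 1015 and 1051 in Cyc against 1065 and 1088 in Wt, the only gene of the 40 with both Cyc pools below both Wt pools, against 8.23% of all tested probe sets. The difference was -0.06 ± 0.22, and its other 2 probe sets pointed the other way, with 0.16 and 0.15. Ndufs1, the dimmest complex I member and a core iron-sulphur subunit, read 449 and 685 in Cyc against 463 and 675 in Wt. It differed between the experiments in both genotypes and hardly at all between the genotypes (-0.01 ± 0.34). With the experiment as a block its SE was 0.19. Ndufs7, another core iron-sulphur subunit, read 1482 and 1751 in Cyc against 1572 and 1607 in Wt, and its 2 probe sets gave opposite signs in both experiments.

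Within complex I, core and accessory subunits differed in their values in experiment 1. All 17 measured accessory genes were higher in Cyc there, with a median log2 difference of 0.29, while 3 of the 6 core genes were higher and the median was 0.02. In experiment 2, 10 of the 17 accessory and 3 of the 6 core genes were higher in Cyc, with a median of 0.01 in each class. Of all tested genes, 44.8% were higher in Cyc in experiment 1 and 60.5% in experiment 2. No test was made of the difference between the classes. The counts rest on the brightest probe set of each gene. In experiment 1 the other probe sets of the core gene Ndufv1 were higher in Cyc, by 0.11 and 0.19, and the second of Ndufs7 by 0.002. A dimmer probe set of the accessory gene Ndufs4 was lower there by 0.12. The 17 accessory genes include Ndufa4, which was first listed with complex I and is now counted with complex IV. It read 3990 and 3271 in Cyc against 3159 and 3921 in Wt, higher by 0.34 in experiment 1 and lower by 0.26 in experiment 2, and without it 16 of 16 accessory genes were higher in experiment 1. Ndufa8, a membrane arm subunit, read 3170 and 2217 in Cyc against 2312 and 2271 in Wt, so that Cyc 1 alone stood out from the other 3 pools. The other 13 complex I genes had fitted differences of 0.03 (Ndufa10) to 0.20 (Ndufa2). For Ndufa2, Ndufa5, Ndufb7 and Ndufb10 the groups did not overlap, and for the remaining 9 (Ndufa6, Ndufa10, Ndufb3, Ndufb8, Ndufb9, Ndufc1, Ndufs3, Ndufs4 and Ndufv2) they did. Each Cyc pool exceeded each Wt pool in 6 of the 23 measured complex I genes, against 18.5% of all tested genes. Ndufs6 is read together with its relative Ndufs6b by 1 probe set, with 1296 and 872 in Cyc against 1031 and 1060 in Wt, and has no value of its own.

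The 4 subunits of complex II, succinate dehydrogenase, are all nuclear. The flavoprotein gene Sdha read 1117 and 1351 in Cyc against 1253 and 1260 in Wt, a difference of -0.03 ± 0.24. Its values were lower in Cyc by 0.16 in experiment 1 and higher by 0.10 in experiment 2. The iron-sulphur subunit gene Sdhb read 2468 and 2018 in Cyc against 1936 and 1992 in Wt (0.18 ± 0.24). The groups did not overlap for Sdhb, although Cyc 2 exceeded Wt 2 by only 0.02. The membrane anchor gene Sdhc read 432 and 634 in Cyc against 452 and 571 in Wt, and the other anchor gene Sdhd 924 and 961 in Cyc against 876 and 902 in Wt. The genotypes overlapped for Sdhc and not for Sdhd. Their differences were 0.04 ± 0.30 and 0.08 ± 0.22, and those of complex II as a whole had a median of 0.06. In 2 of the 4 genes each Cyc pool exceeded each Wt pool, against 18.5% of all tested genes. The pool Cyc 1 was the highest for 1 of the 4 genes, and 2 of the 4 were higher in Cyc in experiment 1 and 4 of 4 in experiment 2.

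All 6 complex III genes were higher in Cyc in experiment 1 and 4 of 6 in experiment 2. Uqcrc2, which encodes a core protein, read 2713 and 2830 in Cyc against 2318 and 2402 in Wt. It was higher in Cyc by 0.23 in each experiment (fitted 0.23 ± 0.22), and the genotypes did not overlap. Cyc1, the gene of cytochrome c1, read 2297 and 2195 in Cyc against 2045 and 1917 in Wt, with differences of 0.17 and 0.19 in the experiments. Here the gene symbol Cyc1 is not to be taken for the pool Cyc 1. Uqcrfs1, the Rieske iron-sulphur protein, read 1137 and 1068 in Cyc against 1005 and 1038 in Wt. In these 3 genes each Cyc pool exceeded each Wt pool, as was seen in 18.5% of all tested genes. Uqcrc1, the other core protein, read 1604 and 1339 in Cyc against 1415 and 1311 in Wt. Uqcrb, the brightest of all members, read 12592 and 10018 in Cyc against 11441 and 10416 in Wt. Uqcrq, a small accessory subunit, read 1709 and 1340 in Cyc against 1328 and 1502 in Wt. In these 3 genes the pools of the genotypes overlapped.

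The 6 measured complex IV genes were all higher in Cyc in experiment 1, and Cyc 1 was the highest pool for each. In experiment 2 only Cox5b was higher in Cyc, and the other 5 were lower by 0.05 to 0.09. Cox5b read 5511 and 4231 in Cyc against 4140 and 4025 in Wt, a difference of 0.24 ± 0.25. Cox4i1, the ubiquitous form of subunit 4, read 5750 and 4477 in Cyc against 4921 and 4778 in Wt. Cox6c read 5909 and 4452 in Cyc against 4687 and 4605 in Wt. For these genes the other 3 pools lay close together below Cyc 1. Cox5a read 6207 and 5348 in Cyc against 5379 and 5690 in Wt, and Cox6b1 5965 and 5036 in Cyc against 4921 and 5217 in Wt. Cox8a, the ubiquitous form of subunit 8, read 1954 and 1760 in Cyc against 1674 and 1869 in Wt. In each of these 3 genes Cyc 2 lay below Wt 2. Atp5f1b, the catalytic beta subunit of ATP synthase and the single complex V member, read 4388 and 3698 in Cyc against 4473 and 3225 in Wt. Both genotypes were higher in experiment 1 for this gene, and the difference was 0.08 ± 0.28.

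Seen over all 40 genes, the 2 experiments did not give the same picture. In experiment 1 the members were higher in Cyc for 34 of 40 genes with a median log2 difference of 0.22, while the median of all tested probe sets was -0.10 and 38.2% of them were higher. In experiment 2, 23 of 40 genes were higher with a median of 0.02, beside 0.06 and 58.8% over all tested probe sets. The difference was larger in experiment 1 for 31 genes. With the arrays scaled to the same median the members' medians were 0.37 and -0.09. The 3863 other genes in the same range of intensity had medians of -0.04 and 0.02. By complex, the medians in experiment 1 were 0.25 in complex I, 0.01 in complex II, 0.18 in complex III and 0.25 in complex IV. In experiment 2 they were 0.01, 0.09, 0.04 and -0.07 in the same order.

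**Figure D2:**
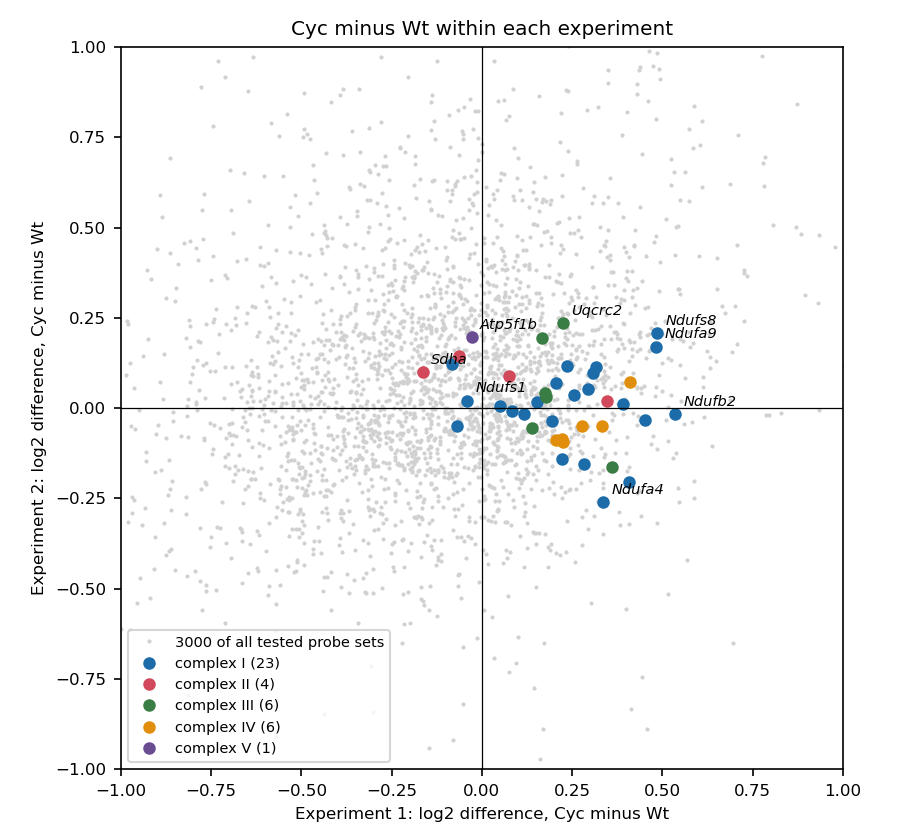
Difference between Cyc and Wt (log2) of each member in experiment 1 (x axis) and experiment 2 (y axis), coloured by complex, over a sample of all tested probe sets in grey. Most members lie to the right of 0 in experiment 1 (34 of 40) and on both sides of 0 in experiment 2 (23 of 40 higher), with complex IV at the lower right.

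Counted by gene, 18 of 40 members were higher in Cyc in both experiments, against 26.1% of all tested probe sets, and in 12 of 40 each Cyc pool exceeded each Wt pool, against 15.1%. On the level of genes these shares were 30.8% and 18.5% over the 10315 genes tested. The members' shares were thus above the background in both counts, and no test was made of the excess. The pool Cyc 1 was the highest of the 4 pools for 29 of 40 members and for 14.0% of all tested probe sets. It was so for 20.5% of the 3863 other genes in the members' range of intensity. Other lists shared the trait, with 11 of 14 further ATP synthase genes and 7 of 10 further complex I genes. It also held for 11 of 14 mitochondrial and 9 of 12 cytosolic ribosome genes. The TCA cycle had 2 of 13 such genes and glycolysis 5 of 12. Without Cyc 1 the median difference of the members was 0.03, beside 0.18 over all tested probe sets. Without Cyc 2 it was 0.21, beside -0.19 over all tested probe sets. The summed intensity of the members was 0.809% of the total in Cyc 1, 0.606% in Cyc 2, 0.671% in Wt 1 and 0.633% in Wt 2.

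The spread between the pools of one genotype was of the same size as these differences. From pool 1 to pool 2 the members were lower by a median of 0.18 in Cyc (log2) and higher by 0.04 in Wt, while all tested probe sets were higher by 0.38 in Cyc and by 0.19 in Wt. A two-sided exact permutation of 2 against 2 pools cannot give a p below 0.333, so single genes were left to the limma fit.

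Markers of other cells also differed between the pools. Of 19 cardiomyocyte markers 15 were measured. Ryr2 was under 50 in all pools, and Myh7 read 35.2 and 61.4 in Cyc and was below 0 in both Wt pools. The summed intensity of the 19 was 4869 and 5562 in Cyc against 6913 and 5467 in Wt. The 15 measured had a median log2 difference of -0.72 in experiment 1 and of -0.36 in experiment 2, and Mb and Myl2 fell past the thresholds. Not all went this way: 3 of the 15 were higher in Cyc in experiment 1 and 4 in experiment 2, and the highest fitted difference was 0.99. The 8 airway epithelium markers summed to 328 and 18113 in Cyc against 3126 and 136 in Wt, and Foxj1 was under 50 in all pools, as was Sftpa1 at the brighter of its 2 probe sets. The 8 leukocyte markers summed to 343 and 1113 in Cyc against 307 and 290 in Wt, with Cd3e and Cd79a under 50 and Tyrobp higher past the thresholds. Of 7 erythroid markers only Alas2 was measured, with 248 and 123 in Cyc against 377 and 260 in Wt. Their part in the members' values was not tested. In such bulk samples a lower share of a cell type and less RNA per cell cannot be told apart.

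The 3 complex IV isoforms of striated muscle read lower in Cyc, unlike most members, while the ADP/ATP carrier of muscle read higher. Cox7a1, the heart and muscle form of a complex IV subunit, read 48.3 and 44.7 in Cyc against 120 and 73.6 in Wt, a log2 difference of -0.82 ± 0.30 that did not reach 2-fold (limma, unadjusted p 0.0424, adjusted p of 1 after rounding). Cox6a2, another muscle form, read 103 and 106 in Cyc against 174 and 116 in Wt. Cox8b was under 50 on 3 of 4 arrays, 20.3 and 21.2 in Cyc against 60.5 and 38.2 in Wt. In all 3 genes each Cyc pool lay below each Wt pool, as was seen in 8.23% of all tested probe sets. Slc25a4, the ADP/ATP carrier of heart and muscle, read 3245 and 3858 in Cyc against 2831 and 3533 in Wt. It was higher in Cyc by 0.20 in experiment 1 and by 0.13 in experiment 2.

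Among the members with several probe sets the readings could be compared with each other. Of the 40 genes, 22 had 2 or more tested probe sets, and the fitted differences of 1 gene spread over a median of 0.16 and at most 0.42 (Ndufs4). The sign of the fitted difference was mixed for 4 genes, which were Ndufs4, Ndufs7, Ndufv1 and Sdha. In experiment 1 the signs were mixed for 4 genes and in experiment 2 for 11. The 14 probe sets whose names end in _x_at, which can bind transcripts of related genes or pseudogenes, had a median difference of 0.21, and all 14 were higher in Cyc in experiment 1. The 31 probe sets that end in _at had a median of 0.08, with 27 higher in experiment 1. The 24 that end in _a_at had a median of 0.15, with 21 higher in experiment 1. Some genes have several probe sets of 1 ending, so ending and gene cannot be told apart. Respiratory genes have many processed pseudogenes in the genome, and which transcripts the _x_at probe sets read is uncertain. Counted by probe set, each Cyc pool exceeded each Wt pool in 30 of 72, against 15.1% of all tested probe sets. Of these 30, 10 end in _x_at, 11 in _a_at, 8 in _at and 1 in _s_at. Probe sets of the same gene are counted singly here and are not independent.

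**Figure D3:**
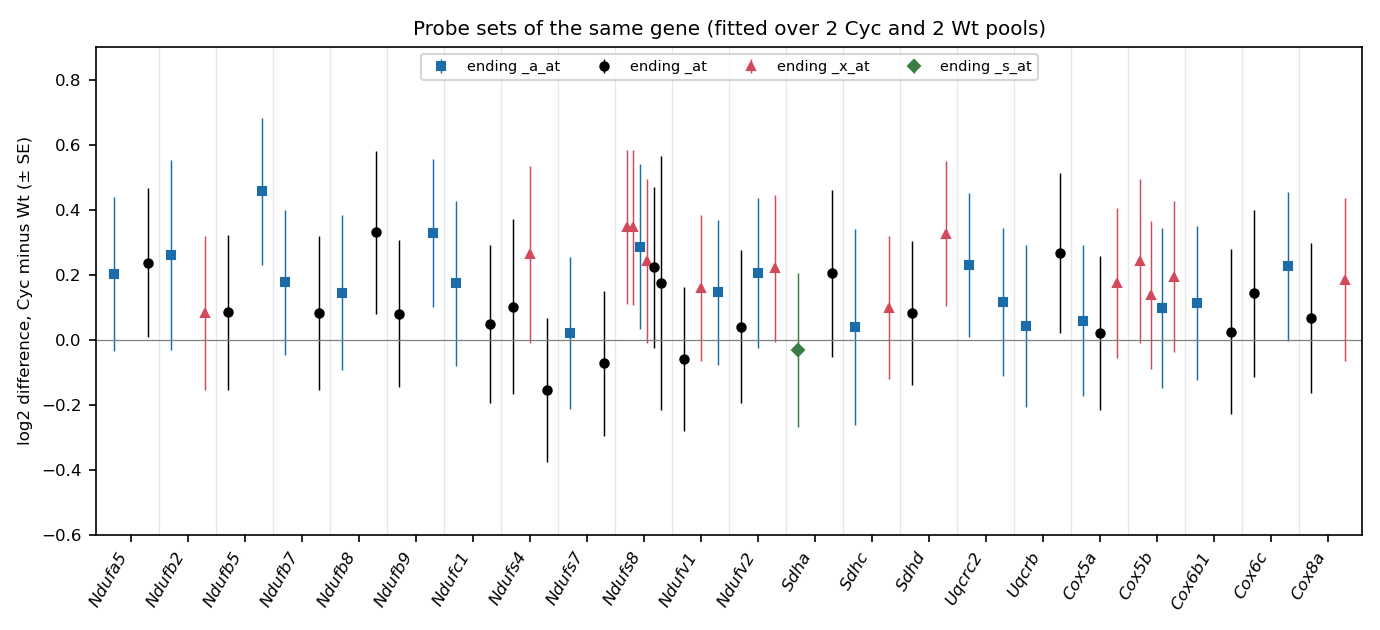
Fitted log2 difference between Cyc and Wt (points) with its standard error (lines) for each tested probe set of the 22 members with 2 or more, coloured by the ending of the probe set name. All error bars of a gene overlap, and the _x_at points lie above 0 in all 14 cases.

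The promoters of these genes are known for sites of the transcription factors NRF1 and GABPA (an ETS protein) and of YY1. Windows of RefSeq promoters from 250 bases before to 50 after the start (GRCm38.p6) were at hand for 32 of the 42 members and for 27025 genes in all. The NRF1 motif, searched on both strands as GCGCA, any base and GCGC, was in 21.9% of the members' windows and in 5.19% of all. The ETS motif CCGGAAG, on both strands, was in 21.9% and 9.93%. The YY1 motif AANATGGC, also on both strands, was in 34.4% and 6.96%, and in 8 of the 11 members with a match it lay after the start. The motifs were matched by letters alone, so that these shares are a description and not a count of bound sites. The 250 bases before the start are shown for Ndufs8, the member with the highest difference, for Sdha, which was lower in Cyc in experiment 1, and for Ndufa8, where Cyc 1 stood out, with matches in capitals. Ndufa8 has an NRF1 match, on the opposite strand, 30 bases before the start, Ndufs8 a YY1 match 165 before it, and Sdha 3 NRF1 matches, 98, 55 and 10 before it.
Ndufs8 promoter (chr19:3912775-3913024, minus strand): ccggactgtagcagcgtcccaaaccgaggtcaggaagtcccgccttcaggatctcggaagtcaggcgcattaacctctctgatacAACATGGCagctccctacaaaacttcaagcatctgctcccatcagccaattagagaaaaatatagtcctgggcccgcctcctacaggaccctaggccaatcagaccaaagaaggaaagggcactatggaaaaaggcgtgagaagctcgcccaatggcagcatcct
Sdha promoter (chr13:74350241-74350490, minus strand): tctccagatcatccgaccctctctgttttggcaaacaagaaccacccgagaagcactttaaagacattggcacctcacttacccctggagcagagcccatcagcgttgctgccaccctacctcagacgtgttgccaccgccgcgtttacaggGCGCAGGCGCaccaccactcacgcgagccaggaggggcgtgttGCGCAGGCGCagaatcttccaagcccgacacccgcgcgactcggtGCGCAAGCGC
Ndufa8 promoter (chr2:36049339-36049588, minus strand): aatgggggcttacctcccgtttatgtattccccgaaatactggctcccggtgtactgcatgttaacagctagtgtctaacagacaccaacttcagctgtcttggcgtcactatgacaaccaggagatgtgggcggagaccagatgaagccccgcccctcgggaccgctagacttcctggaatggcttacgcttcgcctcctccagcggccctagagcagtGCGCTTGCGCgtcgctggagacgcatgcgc

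The factors themselves were measured too, in a list of 13 regulators of mitochondrial biogenesis of which 11 were measured. None of them passed the thresholds. Nrf1 read 67.1 and 157 in Cyc against 108 and 194 in Wt, Gabpa 726 and 1258 in Cyc against 952 and 1387 in Wt, and Yy1 1477 and 1645 in Cyc against 1475 and 1951 in Wt. All 3 were higher in pool 2 than in pool 1 of each genotype. Of the members, 30 of 40 were lower in Cyc 2 than in Cyc 1, and 28 of 40 were higher in Wt 2 than in Wt 1. Among all 20680 tested probe sets, 4716 were lower in Cyc 2 and 14372 higher in Wt 2. Most probe sets thus read higher in pool 2 of each genotype, as the 3 factors did, and a link between factors and members was not tested. Ppargc1a and Esrrg, a coactivator and a nuclear receptor of the same program, stayed under 50 in all pools. The median difference of the 11 regulators was -0.12.

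Subunits of the same complexes that are not among the 42 members were described in the same way. The 10 measured of 13 further complex I subunits had a median difference of 0.20, 9 of 10 being higher in Cyc in experiment 1 and 7 in experiment 2. The 14 further ATP synthase subunits had a median of 0.10, with 13 of 14 higher in experiment 1 (median 0.25) and 6 in experiment 2 (median -0.07). The 3 further complex III genes had a median of 0.06, and the 3 measured of 5 further complex IV genes of 0.07. None of these 30 genes passed the thresholds. Cyc 1 was thus above Wt 1 for most ATP synthase genes outside the list, while Atp5f1b, the single member of this complex, was lower in Cyc 1 by 0.03.

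**Figure D4:**
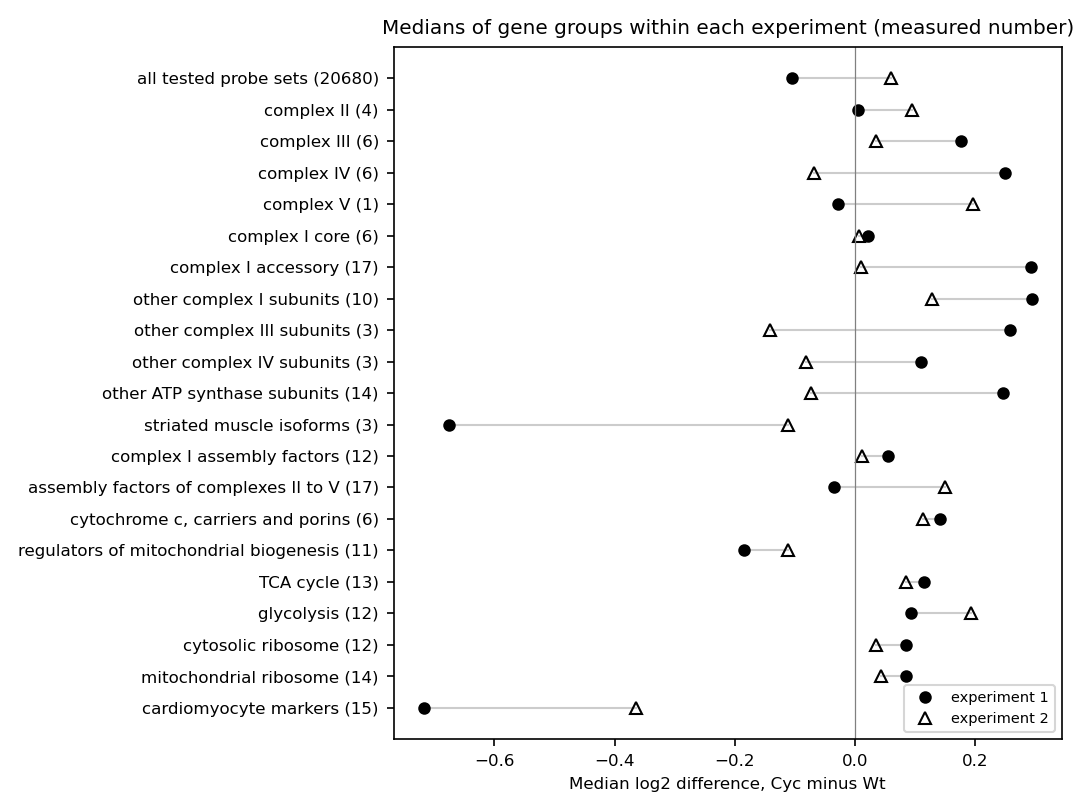
Median log2 difference between Cyc and Wt in experiment 1 and experiment 2 for the members by complex (complex I as core and accessory subunits), for further lists of genes and for all tested probe sets, with the number measured in parentheses. The complex I accessory subunits, complexes III and IV and the other ATP synthase subunits lie at 0.18 to 0.29 in experiment 1 and at -0.07 to 0.04 in experiment 2, while the cardiomyocyte markers lie below 0 in both.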

How the data were processed

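RNA of 2 Cyc and 2 Wt pools was hybridised to Affymetrix mouse expression arrays. The deposited values are intensities on a linear scale, 1 per probe set and array, which the authors normalized in Resolver 7.2; background correction and summary method are not given in the sources used here. Values below 0 were set to 0, 16 was added and log2 taken, and 64 control probe sets were kept out. Of 45037 probe sets, 34945 carry 1 symbol, 932 several and 9160 none in the platform annotation used. Probe sets with 50 or above on 2 or more arrays entered the fit in limma 3.58.1 (R 4.3.3, 2 residual and 2.68 prior degrees of freedom), two-sided, with Benjamini-Hochberg adjustment. The Resolver error model was not run. The script was tested on simulated data with no experiment effect and with planted changes larger than that of any member. The simulation therefore does not cover differences of the members' size. The number of arrays limits the precision.

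A gene stands at its brightest tested probe set with its symbol alone. Ndufs6 shares its probe set with Ndufs6b, Cox7b was not analysed here, and Atp5f1b was read under its older symbol Atp5b. The remaining 12 probe sets of members lay at or below 44.8. Values per pool are given for the 3 highest and 3 lowest fitted differences, the brightest and dimmest gene of a complex, genes whose probe sets disagreed in both experiments, all genes of complexes II to V and a few more. The members and the lists were chosen with earlier results of these data known. The replicate numbers were taken as experiments: deviations of same-numbered pools from their group means correlated at 0.447 over tested probe sets. Alternatives were the pseudocount, the filter, 2 scalings, the replicate block, a plain per-probe-set statistic, the mean over probe sets (for the medians) and leaving out each pool.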

Additional observations from a re-analysis of the deposited data

How the results depend on the processing

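No alternative called any of the 72 member probe sets, the replicate block included. The block leaves the median of the members at 0.10 by design, and the smallest p of a member with it was 0.0562 in limma. With the block and quantile normalization it was 0.0435, and without the filter 0.0143, in limma, where Uqcrc2 also had an unadjusted p under 0.05, with all changes under 2-fold. With the arrays scaled to the same median, the members' median was 0.37 in experiment 1 and -0.087 in experiment 2. Leaving out 1 pool at a time, the median over all members ranged from 0.028 (without Cyc 1) to 0.21 (without Cyc 2). Over all tested probe sets the median was 0.18 without Cyc 1 and -0.19 without Cyc 2. By complex, the members' median ranged from 0.025 to 0.22 in complex I, from -0.056 to 0.15 in complex II and from 0.019 to 0.21 in complex III. It ranged from -0.029 to 0.24 in complex IV and from -0.15 to 0.32 in complex V.

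Of 384 fitted values of 31 members (Ndufb5 at 2 probe sets) under 12 alternatives, 351 kept their direction, and 33 changed it, in 20 members. The filters and the block leave a fitted difference as it is, so they could not change a direction. The block with quantile normalization repeats the differences of quantile normalization alone. The count of values that kept their direction is therefore no measure of robustness. Ndufs1 was at 0.022 with quantile normalization, with or without the block, and at 0.012 with scaled arrays, and Ndufa4 at -0.014 with quantile normalization, with or without the block. The other changes among these alternatives came from leaving out a pool. Averaging over probe sets was applied to the medians and is not among the 12. The mean over a gene's tested probe sets, added after seeing the data, had the opposite sign to its brightest one in 3 genes, at 0.082 for Ndufv1, 0.086 for Sdha and -0.027 for Ndufs7. The ranges were -0.31 to 0.29 for Ndufs1, -0.12 to 0.19 for Ndufa4, -0.034 to 0.55 for Ndufb2, -0.0998 to 0.14 for Ndufs7, -0.042 to 0.21 for Ndufb5 and -0.047 to 0.47 for Ndufa8. They were -0.090 to 0.17 for Ndufs3, -0.052 to 0.13 for Ndufv2, -0.12 to 0.32 for Ndufs4, -0.17 to 0.10 for Sdha and -0.23 to 0.31 for Sdhc. For complexes III to V they were -0.12 to 0.21 for Uqcrb, -0.025 to 0.23 for Uqcrc1, -0.075 to 0.27 for Uqcrq, -0.11 to 0.25 for Cox4i1, -0.049 to 0.17 for Cox5a, -0.0088 to 0.23 for Cox6b1, -0.061 to 0.35 for Cox6c, -0.012 to 0.15 for Cox8a and -0.15 to 0.32 for Atp5f1b. The causes were not tested.

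Over all probe sets, 152 were called higher and 24 lower. These counts were 178 and 46 with a pseudocount of 1, 93 and 19 with 50, 191 and 47 with the block, 194 and 36 with scaled arrays, 581 and 60 without Cyc 1 and 117 and 1050 without Cyc 2. The number of arrays and, for dim probe sets, the background limit the precision.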

Other observations

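Other mitochondrial and metabolic genes were described by the same measures, with no call in any of these lists. The 13 measured genes of the TCA cycle, which feeds electrons to the respiratory chain, had a median log2 difference of 0.10, and 10 of them were higher in Cyc in both experiments (medians 0.11 and 0.09). The 12 measured glycolytic genes had a median of 0.12, with 9 higher in both. Of all tested genes 30.8% were higher in both experiments. Tpi1, which encodes triosephosphate isomerase, read 1736 and 1972 in Cyc against 1274 and 1204 in Wt, a difference of 0.57 ± 0.23 (SE, n = 2 a group, adjusted p of 1 after rounding in limma). Pgk1, phosphoglycerate kinase, read 2385 and 2222 in Cyc against 1857 and 1707 in Wt. In both genes the groups did not overlap. Each Cyc pool exceeded each Wt pool in 8 of the 12 glycolytic and 5 of the 13 TCA cycle genes. This was so for 18.5% of all tested genes.

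The 14 genes of the mitochondrial ribosome had a median of 0.08, and the 12 measured of the cytosolic ribosome of 0.04. The 12 assembly factors of complex I had a median of 0.02 and the 17 of the other complexes of 0.10. The list of cytochrome c, the ADP/ATP and phosphate carriers and the porins, 6 genes in all, had a median of 0.16 and medians of 0.14 and 0.11 in the experiments. The 8 endothelial markers had a median of -0.20, and the 8 fibroblast markers of 0.43, with Col1a1 called higher in Cyc. The fibroblast medians were 0.16 in experiment 1, with 5 of 8 genes higher, and 0.75 in experiment 2, with 8 of 8 higher. Their summed intensity was lowest in Wt 2, at 24706, against 39489.5 in Wt 1.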
